A study of Mus musculus with 4 samples.

Results

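Testicular macrophages were described among cell barcodes of a day 35 Znhit1 knockout testis library. The members were selected on measured RNA: a barcode was taken as a macrophage when it had at least 1000 unique molecular identifiers (UMIs, counted RNA molecules), at least 500 genes and at most 10% mitochondrial UMIs. In addition, 6 marker genes (C1qa, C1qb, C1qc, Lyz2, Fcer1g and Tyrobp) had to supply at least 0.5% of its UMIs, and the germ cell genes Ddx4 and Dazl together no more than 3 UMIs. This rule selected 448 barcodes, or 271 if no Ddx4 or Dazl UMI was allowed. They were 5.52% of the 8121 barcodes that passed the depth filters (95% Clopper-Pearson interval 5.03 to 6.04%), out of 15306 deposited. The macrophages were then divided by Cd74, H2-Aa, H2-Ab1 and H2-Eb1, which encode the invariant chain and the chains of MHC class II molecules. In 139 of them (31%, interval 26.8 to 35.5%) these 4 genes supplied at least 0.1% of UMIs (MHC class II high), and 309 lay below that share (MHC class II low). The share of high barcodes moved with depth and was 18.6% among macrophages with at least 2000 UMIs.

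The series comprises mouse testis cells profiled with droplet 3' libraries in 4 groups: Znhit1 knockout at day 35, Znhit1 knockout at day 16, control at day 35 and control at day 16. Znhit1 encodes part of SRCAP, a chromatin remodeller that deposits H2A.Z in nucleosomes, and the design text speaks of depletion in germ cells. Each group had 1 library, and only the counts of the day 35 knockout were analysed here, so nothing below compares knockout with control. The labels used here give no strain, no Cre driver and no list of the cells that carry the deletion, and do not say how many animals went into a library.

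Macrophages are the main immune cells of the testis interstitium, where they lie among Leydig cells and blood vessels. In mouse, an interstitial population low in MHC class II and a peritubular population carrying MHC class II on the tubule wall have been described. MHC class II molecules present peptides to CD4 T cells, and their genes are driven by the coactivator CIITA through conserved upstream boxes, one of which holds the CCAAT core. Because position in the tissue was not measured, the classes below are named by their RNA alone.

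The sequences upstream of H2-Aa and H2-Eb1 are shown because these genes belong to the 4 that divide the macrophages. H2-Aa lies on chromosome 17 at 34282744 to 34287823 on the minus strand of GRCm38, and H2-Eb1 on the same chromosome at 34305867 to 34316674 on the plus strand. Each line gives the 160 bases just before the gene's first base, 5′ to 3′ on the gene's strand, from RefSeq on GRCm38.p6 (chr17:34287824-34287983 for H2-Aa, chr17:34305707-34305866 for H2-Eb1). Capitals mark the 6 letters GATTGG or their reverse complement CCAATC, the CCAAT core and the C that follows it, searched on both strands.
H2-Aa: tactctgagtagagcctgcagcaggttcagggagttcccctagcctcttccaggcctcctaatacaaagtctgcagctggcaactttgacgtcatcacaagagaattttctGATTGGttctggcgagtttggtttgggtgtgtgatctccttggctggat
H2-Eb1: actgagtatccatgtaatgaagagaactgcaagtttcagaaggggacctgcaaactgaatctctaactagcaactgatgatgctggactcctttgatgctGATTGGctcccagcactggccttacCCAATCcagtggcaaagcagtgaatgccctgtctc
The match starts 49 bases before the H2-Aa gene. In H2-Eb1, GATTGG starts 60 bases and CCAATC 35 bases before the gene. Of 32851 RefSeq promoters, 3731 (11.4%) hold either form in the same window, so a match by itself is common. H2-Ab1 and Cd74 are named only.

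The library held 72459160 UMIs. The macrophages had 1450109 UMIs in all, from 1013 to 11873 per barcode with a median of 3077, and the 7673 other barcodes had 49853392 with a median of 4886. Within the macrophages, the MHC class II high barcodes were the shallower class, with a median of 1973 UMIs against 3585 in the low class and totals of 289819 and 1160290. Median mitochondrial shares were 5.29% in macrophages and 6.45% in other barcodes. Of the 448 barcodes, 4 were also listed in the day 16 control library, 2 in the day 16 knockout library and 1 in the day 35 control library. With 1 library there is no replicate and no test below. Intervals cover counting error only, and levels are UMIs summed over a class per 1000000 UMIs of that class (CPM).

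Both cuts fell in sparsely filled ranges. Just outside the marker cut, 16 barcodes held 0.413 to 0.495% of UMIs in the 6 markers. Just inside, 6 held 0.508 to 0.598%, of which 4 were members. The median marker share of the macrophages was 2.19%. A further 26 barcodes reached the marker cut but had more than 3 Ddx4 and Dazl UMIs. They are counted among the other barcodes and contributed 559 of the 1346 C1qa UMIs found there. Another 44 reached the marker cut with at most 3 such UMIs but failed a depth filter. Around the MHC class II cut, 9 macrophages held 0.1 to 0.2% and 14 held 0.05 to 0.1%. Another 257 macrophages (57.4%, interval 52.6 to 62.0%) had no UMI of the 4 MHC class II genes, whereas 105 (23.4%, interval 19.6 to 27.6%) had 1% or more.

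**Figure D1:**
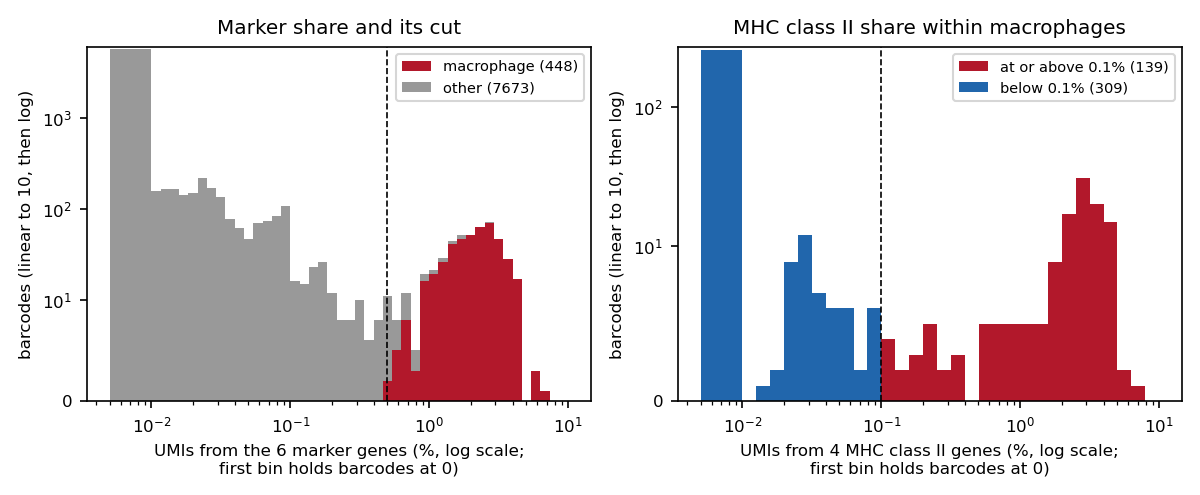
Number of barcodes by share of UMIs from the 6 macrophage markers (left, the 448 macrophages in red stacked with the 7673 other barcodes in grey) and from the 4 MHC class II genes within the macrophages (right, 139 high in red, 309 low in blue). Shares are on a logarithmic axis with barcodes at 0 in the first bin, numbers are linear to 10 and then logarithmic, and dashed lines mark the cuts of 0.5% and 0.1%.

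The 6 markers that chose the cells are described without weight. C1qa, a chain of complement C1q, had 0 to 60 UMIs per macrophage with a median of 14, against 0 to 72 with a median of 0 in the other barcodes. At least 1 C1qa UMI was present in 99.6% of macrophages and in 7.43% of other barcodes. Lyz2, the macrophage lysozyme, had 0 to 147 UMIs per macrophage with a median of 18, and 0 to 84 in other barcodes. Fcer1g and Tyrobp, the adaptor chains that signal for Fc and other activating receptors, had medians of 7 and 4 UMIs in macrophages. Lyz2 reads can be shared with its near copy Lyz1, so its level is uncertain by that amount.

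RNA free in the droplets gives a background for such shares. In 4388 barcodes with more than 3 Ddx4 and Dazl UMIs and a marker share below 0.25%, called germ-marker barcodes here, C1qa was seen in 7.22% at a median depth of 5858.5 UMIs. After thinning every barcode to 1000 UMIs, C1qa was seen in 97.3% of macrophages and 1.34% of germ-marker barcodes. Macrophage markers were absent altogether from 69.1% of germ-marker barcodes. C1qa is a marker of the rule, and both sets of barcodes were chosen by their marker share. The C1qa gap and the 69.1% were therefore partly fixed by selection and do not measure free RNA by themselves.

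Znhit1 itself, on chromosome 5 at 136982164 to 136988021, was close to the detection limit. It had 16 UMIs in the macrophages (11 CPM, interval 6.31 to 17.9), against 344 in other barcodes (6.90 CPM), a ratio of 1.60 with an interval of 0.904 to 2.63. The other barcodes with at most 3 Ddx4 and Dazl UMIs are called barcodes without germ cell genes here. They still held 24923 UMIs of the germ cell markers. Against these barcodes, at 15.7 CPM, the ratio was 0.702 with an interval of 0.394 to 1.16. The direction thus depended on what Znhit1 was set against, and both intervals included 1. Within the macrophages it had 5 UMIs in the MHC class II high and 11 in the low class. A 3' tag count need not fall in a deleted exon, and the sources used here do not name the deleted part, so these counts do not check the genotype.

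Because the markers came from the same barcodes as all other genes, the comparison of macrophages with other barcodes is a description. Among 18625 genes that reached 20 UMIs in both classes together, 11.7% had a level in macrophages of at least 2 times that of other barcodes and 35.2% were lower by that much, with a median log2 ratio of -0.48. Of the other barcodes, 4388 were the germ-marker barcodes above. Against the 3245 other barcodes with at most 3 Ddx4 and Dazl UMIs, 11.2% of 14988 genes were higher and 26.5% lower by 2-fold or more (median -0.38).

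The label was set beside 25 further macrophage identity genes. Their list was written with earlier results of these data known, so they describe the cells and do not test the label. Of the 24 with enough counts, all 24 were at least 2-fold higher in macrophages than in other barcodes (median log2 ratio 7.02), and also against barcodes without germ cell genes (6.97). Csf1r, the receptor for the macrophage growth factor CSF1, stood at 579 CPM in macrophages and 4.33 CPM in other barcodes. Adgre1, which encodes the F4/80 antigen, stood at 357 against 2.51 CPM. Cd68, a lysosomal membrane protein of phagocytes, stood at 417 against 3.17 CPM. Clec4f, a marker of liver Kupffer cells, had no UMI in the macrophages. The most abundant identity gene was Apoe, which carries lipid between cells, at 14338 CPM in macrophages and 484 CPM in other barcodes.

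Markers of dendritic cells, neutrophils and lymphocytes were rare, and those of monocytes were mixed. Among dendritic cell markers, Xcr1, Clec9a, Cd209a, Itgax and Ccr7 had 0 UMIs in the 448 macrophages and Flt3 had 2. Of 13 dendritic cell markers tested, 4 were at least 2-fold higher and 3 lower than in other barcodes. Wdfy4, used in cross-presentation, had 69 UMIs in macrophages, Siglech 24 and Irf4 23. Dendritic cell markers together supplied 0.0119% of macrophage UMIs, from 0 to 0.219% per barcode, against 0.00507% and from 0 to 0.253% in other barcodes. Of 11 neutrophil markers, 10 had no UMI, and Csf3r, the receptor for the growth factor G-CSF, had 40. Of 10 monocyte markers tested, 5 were higher and 3 lower. S100a4, seen in 45.5% of macrophages, was 86.5-fold higher, Ccr2 66.3-fold and Lsp1 17.5-fold. Ly6c2, a marker of inflammatory monocytes, had 1 UMI. T and B cell genes were near 0 (Cd3e 2 UMIs, Ms4a1 0, Cd8a 0), although Cd4 had 32 and Cd79b 23. Leydig markers had a median log2 ratio of -1.40, and of -2.94 against barcodes without germ cell genes, with all 8 at least 2-fold lower in both comparisons. Against all other barcodes the corresponding medians were -1.85 for peritubular myoid, -1.38 for interstitial stroma and -1.10 for endothelial markers. Sertoli markers differed less, with a median of -0.13 and 0 of 12 at least 2-fold higher or lower, and a median of -1.30 against barcodes without germ cell genes. The Sertoli markers together supplied 0.256% of macrophage UMIs, from 0 to 1.06% per barcode, and 0.269% of other UMIs, from 0 to 4.85%. Amh, which marks immature Sertoli cells, had 0 UMIs in macrophages. Of the 3715 Sertoli marker UMIs in macrophages 1135 were Ctsl, a lysosomal protease that macrophages also use, at 783 CPM against 673 CPM. The part of these markers in the results was not tested.

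**Figure D2:**
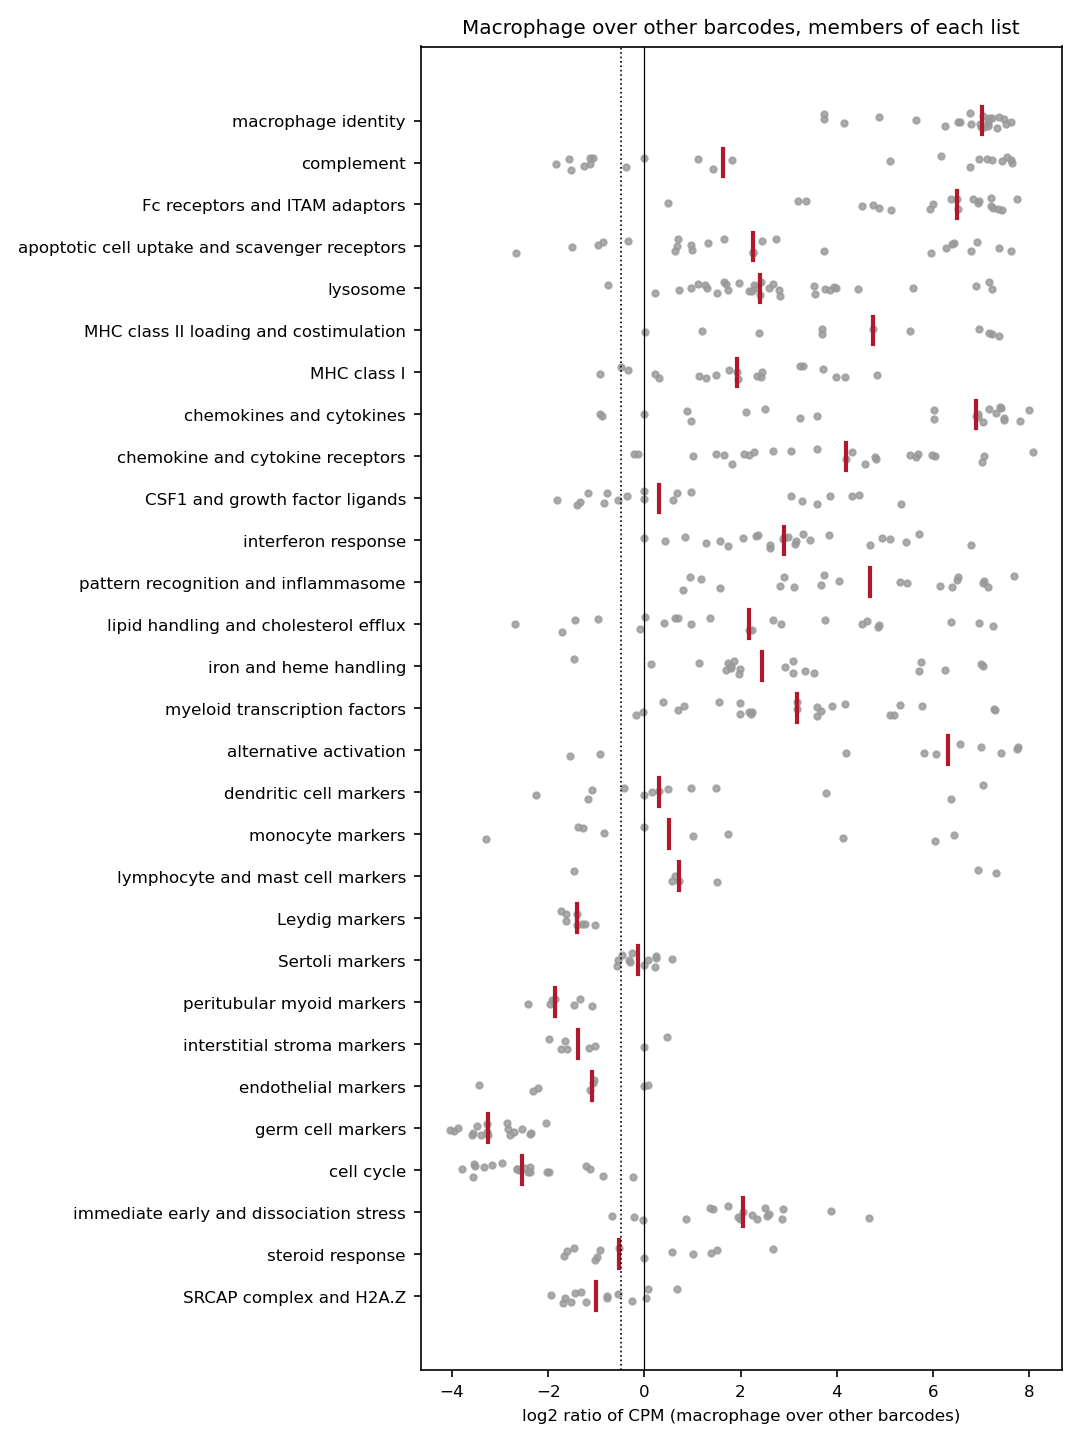
Each grey point is a gene with at least 20 UMIs, placed at its log2 ratio of CPM in the 448 macrophages over the 7673 other barcodes, and each red bar is the median of a list. Genes with no macrophage UMI stand at their upper bound or at 0, whichever is lower. The dotted line marks the median of all 18625 genes at -0.48. Identity, Fc receptor, chemokine and alternative activation lists have medians above 6, and germ cell and cell cycle lists have medians below -2. The Fc receptor, complement and germ cell lists include genes used by the rule.

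Receptors for antibody were higher almost without exception. Of 21 Fc receptor and adaptor genes tested, 20 were at least 2-fold higher (median log2 ratio 6.5), and all 21 were against barcodes without germ cell genes. Fcer1g and Tyrobp, on this list, helped choose the cells, so their part in these counts was fixed by the rule. Fcgr1, the high-affinity IgG receptor, stood at 80.0 CPM against 0.542 CPM, and Fcgr3 at 243 against 6.98 CPM. Fcgr genes resemble each other, and reads may be divided between them. Trem2, a lipid-sensing receptor that signals through Tyrobp, stood at 696 CPM in macrophages and 4.55 CPM in other barcodes.

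Complement was divided by role. Of 22 complement genes tested, 13 were at least 2-fold higher and 7 lower by as much (median 1.63), and against barcodes without germ cell genes 10 of 21 were higher and 6 lower (median 0.72). The higher ones held the C1q chains used by the rule, and the receptors C3ar1 (268 against 1.93 CPM) and C5ar1 (107 against 0.863 CPM). Lower were the classical and central components C2 (19.3 against 57.4 CPM) and C3 (9.65 against 21.0 CPM), and the C1 inhibitor Serping1 (32.4 against 77.6 CPM).

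Genes for the uptake of dying cells and modified lipoproteins were uneven. Of 25 tested, 15 were at least 2-fold higher and 2 lower than in other barcodes, and against barcodes without germ cell genes 11 were higher and 5 lower. Mertk, a receptor for phosphatidylserine bridged by GAS6 or protein S, stood at 215 CPM in macrophages and 16.1 CPM in other barcodes. Stab1, a scavenger receptor, stood at 575 against 4.73 CPM. Timd4, a phosphatidylserine receptor of long-lived tissue macrophages, had 58 UMIs, a level of 40.0 against 0.241 CPM. The ligand Gas6 stood at 489 against 251 CPM, a ratio of 1.95, but at 0.693 times the level in barcodes without germ cell genes.

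The lysosome list was higher in nearly all of its members. Of 33 tested, 29 were at least 2-fold higher and 0 lower (median log2 ratio 2.41), and 25 were higher and 1 lower against barcodes without germ cell genes. All 34 lysosome genes together supplied 1.62% of macrophage UMIs and 0.292% of those of other barcodes. The protease Ctsb led at 1807 against 157 CPM, an 11.5-fold difference with an interval of 11 to 12.1, which was 4.88-fold against barcodes without germ cell genes. Ctss, the protease that trims the invariant chain, stood at 981 against 6.52 CPM. Gaa, which breaks down glycogen, was at 0.59 times the level of other barcodes on 44 UMIs.

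Iron and lipid genes followed. Of 20 iron and heme genes, 18 were at least 2-fold higher and 1 lower (median 2.45), and of 23 lipid genes 13 were higher and 3 lower (median 2.18). Against barcodes without germ cell genes the medians were 1.91 and 0.77, with 13 of 20 iron genes higher and 0 lower and 11 of 22 lipid genes higher and 5 lower. The ferritin chains were among the most abundant RNAs, with Fth1 at 8437 CPM against 2437 and Ftl1 at 5740 against 669 CPM. Slc40a1, the iron exporter ferroportin, stood at 151 against 2.89 CPM, and the heme-degrading enzyme Hmox1 at 270 against 31.6 CPM. Lpl, the lipoprotein lipase, stood at 401 against 3.25 CPM. Abca1, which exports cholesterol, depended on what it was set against. It was 2.59-fold higher than in other barcodes and at 0.932 times the level of those without germ cell genes.

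Chemokine, receptor and innate sensing lists were far higher in macrophages. Of 23 chemokine and cytokine genes, 18 were at least 2-fold higher and 0 lower (median 6.89), and of 25 receptors 23 were higher and 0 lower (median 4.18). Against barcodes without germ cell genes 15 of 21 chemokine and cytokine genes were higher and 2 lower (median 6.31), and 20 of 24 receptors were higher and 1 lower (median 3.36). Pf4, a platelet and macrophage chemokine, was the most abundant at 2213 against 12.4 CPM. Ccl2, which recruits monocytes, stood at 774 against 4.59 CPM, Ccl3 at 416 against 2.35 CPM and Ccl7 at 302 against 1.34 CPM. The cytokine Tnf had 249 UMIs, 172 against 1.40 CPM. Il6 had 0 UMIs and Il10 had 11. Cx3cr1, the fractalkine receptor, led the receptors at 582 against 11.7 CPM. Among 20 pattern recognition genes, 18 were higher and 0 lower, led by the endotoxin coreceptor Cd14 (316 against 3.43 CPM). Of 25 interferon response genes 22 were higher and 0 lower. Against barcodes without germ cell genes these counts were 16 of 19 and 20 of 25 higher, with 0 lower in either list. Ifi207, of the interferon-induced HIN200 family, stood at 219 against 1.99 CPM, and Ifi27l2a at 457 against 15 CPM. Cxcl1, a neutrophil attractant, was lower at 28.3 against 53.6 CPM.

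Growth factor ligands were mixed. Of 20, 7 were at least 2-fold higher and 4 lower (median 0.30), and against barcodes without germ cell genes 7 of 19 were higher and 5 lower with a median log2 ratio of -0.53. Igf1, a growth factor that Leydig cells respond to, stood at 471 against 23.7 CPM and Pdgfc at 106 against 4.77 CPM. Csf1, the ligand of Csf1r, stood at 11 against 24.7 CPM, and Il34, the other ligand, had 0 UMIs in macrophages. The transcription factors of the myeloid line were higher in 19 of 24 and lower in 0 (median 3.17), and against barcodes without germ cell genes in 17 and lower in 3 (median 2.04). Maf led at 1398 against 35 CPM, and Spi1, which encodes PU.1, stood at 359 against 2.33 CPM.

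Outside the lists, the 10 genes of largest ratio among those with at least 200 macrophage UMIs were again surface and host defence genes. Clec12a, an inhibitory lectin for dead cells, stood at 233 CPM in macrophages and 1.16 CPM in other barcodes. Wfdc17, a secreted protease inhibitor, was the most abundant of them at 1219 against 7.38 CPM. Cybb, the catalytic subunit of the phagocyte oxidase, stood at 377 against 2.31 CPM, and Gpr34, a lysophosphatidylserine receptor, at 317 against 1.87 CPM. Ms4a6c and Ms4a6b were also among the 10, and reads of these near copies may be divided between them.

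Within the macrophages, the MHC class II split went with a second set of differences. Among 7822 genes that reached 20 UMIs, 5.63% were higher in the MHC class II high barcodes by 2-fold or more and 14.0% lower, and the median log2 ratio was -0.15. The low class held 1160290 UMIs against 289819 in the high class, so genes of the low class reached 20 UMIs more easily. With a minimum of 1 UMI, 1268 genes were higher and 1437 lower. High barcodes carried more inflammatory chemokine RNA, and low barcodes more RNA for scavenger receptors, lysosomal enzymes, iron handling and growth factors. The high class was shallower, so the main genes that differed, where counts allowed, were also compared among the 99 high and 38 low barcodes of 1500 to 2500 UMIs. That comparison was chosen after the data had been seen. There 12.4% of 2131 genes were higher by 2-fold or more and 11.1% lower.

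The 4 genes of the split are described only. Cd74 stood at 7795 CPM in high and 31.9 CPM in low barcodes, from 0 to 40 UMIs per high barcode with a median of 15, and at most 3 per low barcode. H2-Aa had a median of 10 UMIs per high barcode and H2-Eb1 a median of 11, and each was seen in 3.24% of low barcodes. After thinning, H2-Aa was seen in 89.2% of high, 0.971% of low and 0.296% of germ-marker barcodes, against 93.5%, 3.24% and 1.96% before thinning. Among the other 7673 barcodes, 41 (0.534%, interval 0.384 to 0.724%) reached the MHC class II cut.

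Antigen loading genes outside the rule were divided. Of 9 tested, 3 were at least 2-fold higher in the high class and 2 lower (median 0.27). H2-DMa and H2-DMb1, which encode the peptide exchange factor H2-M, lie near the split genes on chromosome 17 (34119541 to 34139101 and 34153072 to 34160230). H2-DMa stood at 290 CPM in high and 75.8 CPM in low barcodes, a ratio of 3.82 with an interval of 2.80 to 5.21. H2-DMb1 stood at 145 against 31 CPM, a ratio of 4.67. At matched depth the H2-DMa ratio was 2.97, and H2-DMb1 had 23 UMIs in high and 3 in low barcodes. Reads of H2-DMb1 can be shared with its near copy H2-DMb2. Cd83, which keeps MHC class II at the surface, stood at 369 against 101 CPM, and the costimulator Cd86 at 335 against 277 CPM. MHC class I genes differed little, with 2 of 16 at least 2-fold higher and 0 lower. B2m, the shared light chain, was at 0.863 times the low class.

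Several core macrophage genes were within 2-fold between the classes. C1qa stood at 3971 CPM in high and 5298 CPM in low barcodes, C1qb at 2612 against 3374 CPM, and C1qc at 2998 against 4248 CPM. Csf1r was at 0.801 times the low class with an interval of 0.663 to 0.961. Spi1, at 345 against 362 CPM, had a ratio of 0.953 and an interval of 0.759 to 1.19. Cx3cr1 stood at 659 against 563 CPM, a ratio of 1.17 with an interval of 0.991 to 1.38. Aif1, which encodes the macrophage protein IBA1, stood at 542 against 692 CPM. Others were lower in the high class. Lyz2, one of the 6 selecting markers, stood at 3513 CPM in high and 7574 CPM in low barcodes, a ratio of 0.464. Trem2, at 348 against 783 CPM, had a ratio of 0.445, and the membrane protein gene Ms4a7, at 183 against 565 CPM, had a ratio of 0.323.

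Many macrophage identity genes were lower in the high class, among them genes of resident macrophages. Of 23 identity genes tested, 1 was at least 2-fold higher in the high class, 13 were lower and 9 lay within 2-fold (median -1.18). Folr2, a folate receptor of resident macrophages, had 33 UMIs in high and 933 in low barcodes, 114 against 804 CPM and 7.06-fold lower with an interval of 4.99 to 10.3. It was seen in 9.35% of high and 85.8% of low barcodes, and after thinning in 5.76% and 50.5%, with 1.19% and 0.137% of germ-marker barcodes before and after thinning. Timd4 had 1 UMI in high and 57 in low barcodes, a ratio of 0.0702 with an interval of 0.00175 to 0.407. Cbr2, a carbonyl reductase, was 5.59-fold lower, F13a1, a transglutaminase chain, 4.97-fold lower, and the mannose receptor Mrc1 3.16-fold lower. At matched depth, Folr2 had 3 UMIs in high and 42 in low barcodes, and F13a1 had 36 and 137.

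Cd14 was the identity gene that was higher. It had 354 UMIs in high and 104 in low barcodes, 1221 against 89.6 CPM, a ratio of 13.6 with an interval of 10.9 to 17.1. It was seen in 80.6% of high and 25.6% of low barcodes, and after thinning in 69.1% and 6.80%, where germ-marker barcodes had 1.34% before and 0.114% after. At matched depth its ratio was 7.61.

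Chemokines and cytokines had more higher genes than the other lists. Of 18 tested, 7 were at least 2-fold higher and 3 lower. Il1b, the inflammatory cytokine interleukin 1 beta, had 180 UMIs in high and 17 in low barcodes, 621 against 14.7 CPM, a ratio of 42.4 with an interval of 25.7 to 74.4. Cxcl2, which attracts neutrophils, had 250 and 30 UMIs, a ratio of 33.4 (22.8 to 50.5). Ccl4 had 519 and 97 UMIs, a ratio of 21.4 (17.2 to 26.9), and its neighbour Ccl3 had 387 and 216, a ratio of 7.17 (6.06 to 8.51). At matched depth all 4 were again higher, with ratios of 10.8 for Il1b, 9.25 for Ccl4 and 7.11 for Ccl3. Cxcl2 there had 237 UMIs in high and 0 in low barcodes, at least 32.9-fold higher against a floor of 3 counts over the class.

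The other chemokines did not differ as a block. Ccl12 was 5.29-fold higher (4.17 to 6.74), while the neighbouring genes Ccl2 and Ccl7 on chromosome 11 had ratios of 1.46 and 0.587. The Ccl7 ratio was 1.03 at matched depth. Ccl24, an eosinophil attractant, was 4.19-fold lower with an interval of 2.57 to 7.29, and Pf4 was 2.45-fold lower. Tnf did not differ beyond counting error, at 166 CPM in high and 173 CPM in low barcodes with an interval of the ratio of 0.683 to 1.32.

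Of 23 receptors, 2 were at least 2-fold higher and 4 lower, where 5.63% of all 7822 genes were higher and 14.0% lower. Ccr2, the receptor by which monocytes leave bone marrow, had 48 UMIs in high and 6 in low barcodes, a ratio of 32.0 with an interval of 13.7 to 91.6. It was seen in 25.9% of high and 1.62% of low barcodes, and at matched depth it had 37 and 2 UMIs. Other monocyte genes were not uniform. Lsp1, a leukocyte actin-binding protein, was 8.48-fold higher, whereas S100a4 was 3.20-fold lower, at 169 against 541 CPM. Il17ra, the receptor chain for interleukin 17, had 1 UMI in high and 56 in low barcodes. Ccr2 and Lsp1 RNA in the high class came with 1 UMI of Ly6c2 and 0 of Chil3 over all macrophages. Monocyte markers together supplied 0.0818% of UMIs in high barcodes, from 0 to 0.442% per barcode, and 0.0713% in low barcodes, from 0 to 0.397%.

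No complement or Fc receptor gene tested was at least 2-fold higher in the high class, whereas some innate sensing and interferon genes were. Over all 7822 genes, 5.63% were higher and 14.0% lower. Of 16 pattern recognition genes 2 were at least 2-fold higher and 5 lower. Nlrp3, an inflammasome sensor, had 15 UMIs in high and 16 in low barcodes, a ratio of 3.75 with an interval of 1.73 to 8.11, and the endotoxin receptor Tlr4 had 2 and 58. The median log2 ratio of these genes was -0.61, and 1.2 at matched depth, where only 3 of them had enough counts. Of 16 interferon response genes 5 were higher and 1 lower, led by Irf7 with 15 and 12 UMIs, a ratio of 5.0 and an interval of 2.19 to 11.7. Of 14 complement genes 0 were higher and 3 lower, and of 20 Fc receptor and adaptor genes 0 were higher and 2 lower. Cfp, which stabilises the alternative pathway convertase, had 0 UMIs in high and 86 in low barcodes, at least 7.16-fold lower against a floor of 3 counts over the class. Fcgrt, the neonatal Fc receptor, stood at 186 against 559 CPM.

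Uptake, lysosome, iron and lipid genes were lower in the high class. Among uptake genes 10 of 22 were at least 2-fold lower and 0 higher, among lysosome genes 15 of 33 were lower and 0 higher, and among iron and heme genes 12 of 19 were lower and 0 higher. The 34 lysosome genes supplied 1.04% of UMIs in high and 1.76% in low barcodes. Ctsd, an aspartic protease, had 31 and 1128 UMIs, 9.09-fold lower with an interval of 6.37 to 13.4, although 187 of its UMIs were in 1 low barcode. It was seen in 14.4% of high and 80.3% of low barcodes. Lysosomal genes did not all differ alike. Ctss stood at 1135 CPM in high and 942 CPM in low barcodes, a ratio of 1.21.

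Msr1, a scavenger receptor for modified lipoproteins, had 2 UMIs in high and 101 in low barcodes, 12.6-fold lower with an interval of 3.40 to 106. Stab1 was 4.96-fold lower, Slc40a1 5.83-fold lower and Hmox1 3.13-fold lower. In the lipid list 10 of 17 were lower and 1 higher. Apoe stood at 7129 CPM in high and 16139 CPM in low barcodes, and Abca1 at 155 against 671 CPM. Ch25h, which makes the signalling oxysterol 25-hydroxycholesterol, was the higher member. It had 66 and 6 UMIs, a ratio of 44.0 with an interval of 19.2 to 124, and at matched depth 59 and 2 UMIs.

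Growth factor ligands were mostly lower too. Of 9 growth factor ligands, 1 was at least 2-fold higher and 5 lower. Igf1 stood at 135 CPM in high and 555 CPM in low barcodes, 4.12-fold lower with an interval of 2.98 to 5.85, and Gas6 was 3.52-fold lower. Pdgfb, at 93.2 against 45.7 CPM, was the growth factor that was higher. Transcription factors mostly lay within 2-fold. Of 23, 1 was at least 2-fold higher and 5 lower (median -0.27), and the median at matched depth was 0.13. The higher one was Nfkbia, the NF-kappa-B inhibitor that NF-kappa-B itself induces, at 597 against 278 CPM. Maf was 3.27-fold lower and Klf4 3.77-fold lower.

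Alternative activation genes had a median log2 ratio of -1.91, with 7 of 9 at least 2-fold lower and 1 higher. Mgl2, a galactose-binding lectin, was the exception with 139 UMIs in high and 37 in low barcodes, a ratio of 15 and an interval of 10.4 to 22.2, while its near copy Clec10a was 2.38-fold lower. Reads may be divided between these genes. Outside the lists, the largest ratios among genes with at least 50 UMIs were those of Cd72, Scimp, Creb5 and Glipr1. Cd72, an inhibitory lectin best known from B cells, had 127 UMIs in high and 7 in low barcodes, a ratio of 72.6 with an interval of 34.2 to 184. It was seen in 50.4% of high and 2.27% of low barcodes, while the B cell genes Ms4a1 and Cd79a had 0 and 1 UMIs over all macrophages. Scimp, an adaptor of MHC class II signalling, had 50 and 5 UMIs. Cd52, a small surface glycoprotein of leukocytes, had 269 and 62 UMIs, a ratio of 17.4. In the other direction Tns1, a focal adhesion protein, had 5 and 266 UMIs, 13.3-fold lower with an interval of 5.62 to 41.3.

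At matched depth several other ratios differed in size from those over all barcodes. Cd72 was 22.1-fold higher (5.97 to 185), Mgl2 22.3-fold (6.02 to 186), Cd52 6.04-fold and Lsp1 5.35-fold, and Nfkbia was 3.81-fold higher. Lower in the high class there were Apoe by 5.12-fold, Abca1 by 7.75-fold, Stab1 by 7.05-fold, Ctsd by 7.63-fold, Ccl24 by 6.51-fold and Tns1 by 8.80-fold. Cbr2 was 5.71-fold lower, Mrc1 4.05-fold, Hmox1 4.40-fold, Igf1 4.80-fold and S100a4 4.52-fold. Slc40a1 had 2 UMIs in high and 12 in low barcodes there, Msr1 1 and 7, and Timd4 0 and 3.

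**Figure D3:**
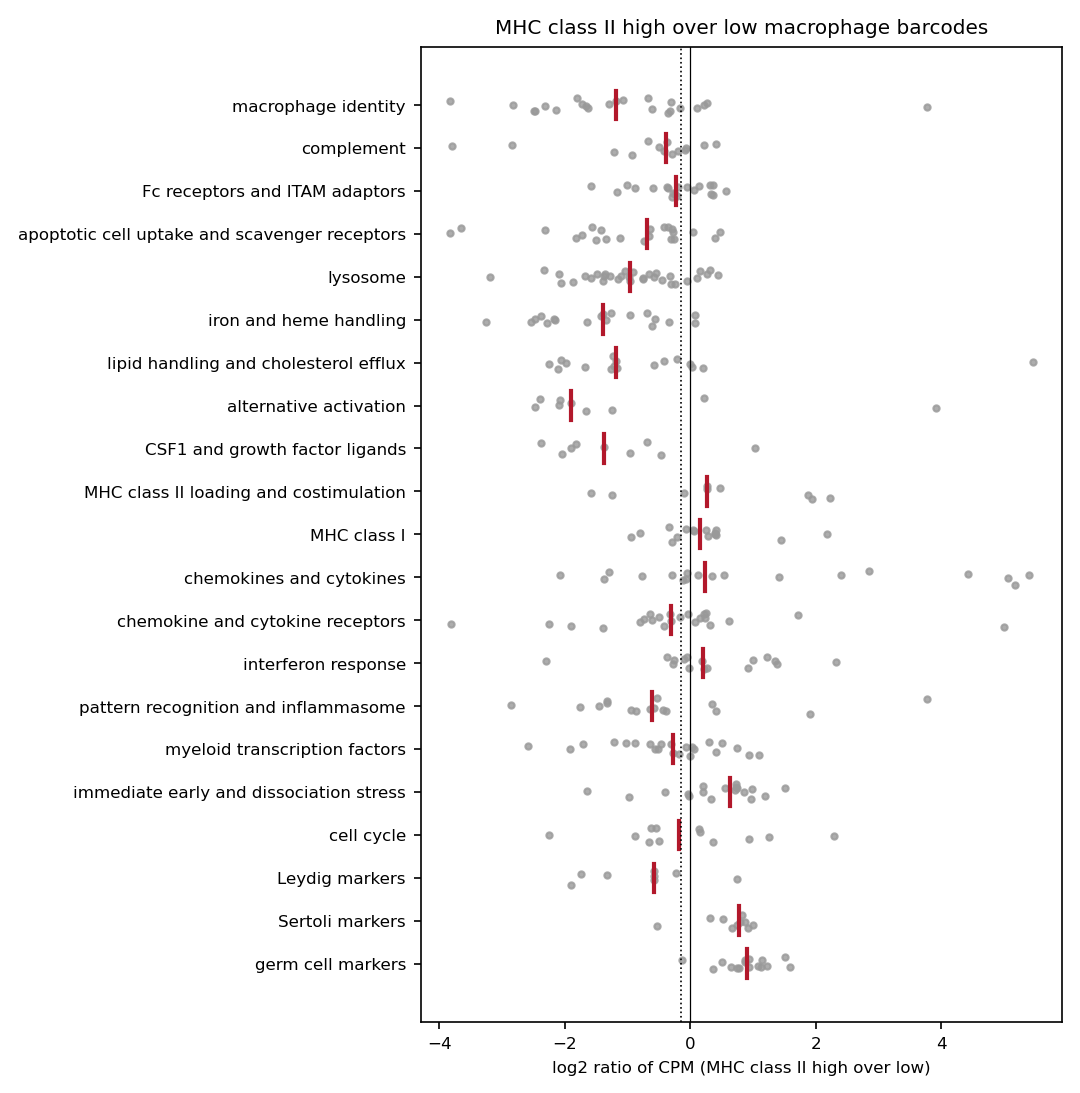
Each grey point is a gene with at least 20 UMIs, placed at its log2 ratio of CPM in the 139 MHC class II high over the 309 low macrophages, and each red bar is the median of a list. The dotted line marks the median of all 7822 genes at -0.15. Lysosome, iron, lipid and alternative activation medians lie below -0.9, and single chemokine genes reach above 4.

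Markers of other testis cells differed between the classes too. Sertoli markers had a median log2 ratio of 0.77, with 1 of 10 at least 2-fold higher and 0 lower, and germ cell markers a median of 0.90, with 6 of 16 higher and 0 lower. Sertoli markers supplied 0.363% of UMIs in high barcodes, from 0.0619 to 1.06% per barcode, and 0.230% in low barcodes, from 0 to 1.02%. Germ cell markers supplied 0.171% in high barcodes, from 0 to 0.544% per barcode, and 0.0958% in low barcodes, from 0 to 1.14%. Leydig markers had a median of -0.58, with 3 of 8 lower. At matched depth the Sertoli median was 0.11 and the germ cell median 0.32, with 0 genes of either list at least 2-fold apart. Ribosomal protein genes supplied 11.6% of UMIs in high and 6.61% in low barcodes. Immediate early and stress genes supplied 1.49% and 1.02%, with 2 of 18 at least 2-fold higher and 1 lower, and at matched depth 10 of 16 were higher. Fos, an immediate early transcription factor, stood at 2336 against 1282 CPM. The part of these values in the other differences was not tested.

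Summed levels were also taken in bands of the MHC class II share. Folr2 stood at 807 CPM in the 257 barcodes without an MHC class II UMI, at 521 CPM in the 9 barcodes at 0.1 to 0.2%, and at 117 CPM in the 15 at 0.5 to 1%. Above 1% it had 0 UMIs in all 105 barcodes. F13a1 reached further along the scale, at 2183 CPM without MHC class II, 1841 CPM at 0.1 to 0.2%, 790 CPM at 0.5 to 1% and 121 CPM at 1 to 2%, and had 0 UMIs above 2%. Apoe stood between 14038 and 19899 CPM in every band below 1%, and at 6846, 2021 and 1586 CPM in the bands of 1 to 2%, 2 to 3% and 3% or more.

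Genes of the high class were lowest where MHC class II was absent or scarce. Ccl4 stood at 76.2 CPM without MHC class II, 1346 CPM at 0.5 to 1%, 2815 CPM at 2 to 3% and 1677 CPM at 3% or more, with 0 UMIs in the 9 barcodes at 0.1 to 0.2%. Cd14 stood at 74.2, 614, 1575 and 1586 CPM in these bands, and Il1b at 8.24, 439, 781 and 949 CPM. Other genes were highest at 1 to 2%. Ccr2 stood at 387, 223 and 117 CPM in the bands of 1 to 2%, 2 to 3% and 3% or more, and Cxcl2 at 1451, 1141 and 910 CPM. Csf1r varied less, between 312 and 819 CPM over all bands. The bands at 0.05 to 1% held 9 to 15 barcodes each, so their levels rest on few cells. The 34 barcodes at 0.1 to 1%, counted as high by the rule, were mixed. Folr2 or F13a1 RNA was present in 20 of them, and 12 held no UMI of Folr2, Timd4, F13a1, Cbr2, Stab1 or Cd163. Their summed levels therefore do not give the level of a typical barcode.

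**Figure D4:**
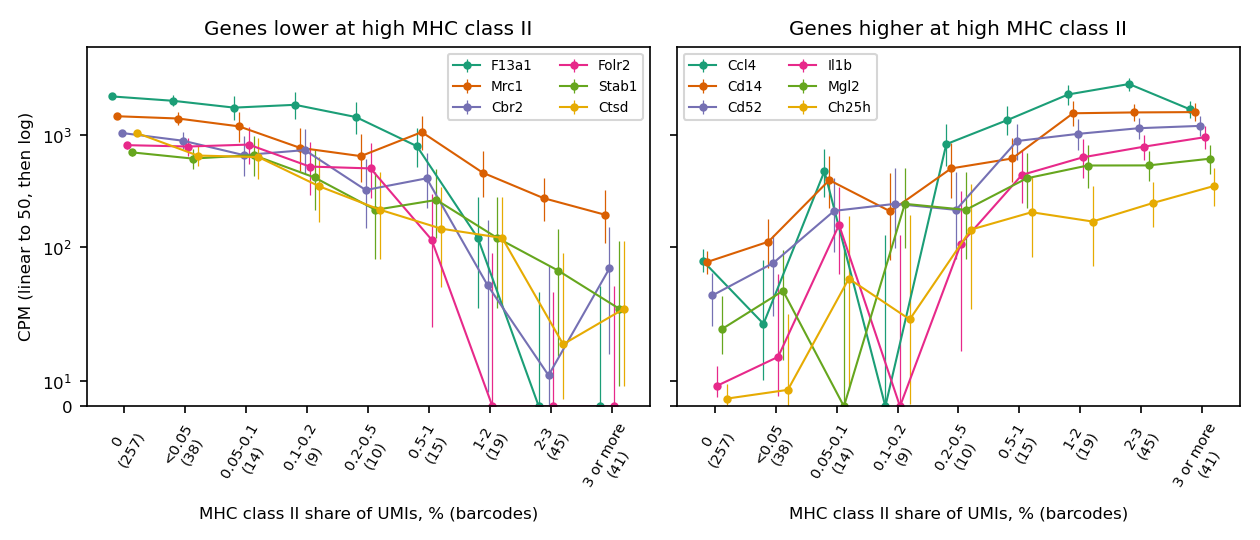
Levels in CPM (linear to 50, then logarithmic) with 95% Poisson intervals in 9 bands of the MHC class II share, with the number of barcodes under each band, for F13a1, Mrc1, Cbr2, Folr2, Stab1 and Ctsd (left) and Ccl4, Cd14, Cd52, Il1b, Mgl2 and Ch25h (right). Folr2 and F13a1 are at 0 in the bands above 2%, and Ccl4 and Cd14 stand above 1000 CPM in the bands above 1%.

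RNAs that differed between the classes were also counted per barcode. A set of 6 genes lower in the high class (Folr2, Timd4, F13a1, Cbr2, Stab1 and Cd163) and a set of 8 higher in it (Ccr2, Cd14, Il1b, Ccl4, Cxcl2, Ch25h, Mgl2 and Cd72) were chosen after their values had been seen, so these counts show how the RNAs were shared out among barcodes and nothing more. Of the 139 high barcodes, 111 had at least 3 UMIs of the second set only, 16 of the first set only, 5 of both and 7 of neither. Of the 309 low barcodes, 2 had the second set only, 269 the first only, 30 both and 8 neither. Of the 34 high barcodes at 0.1 to 1%, 11 had the second set only, 15 the first only, 5 both and 3 neither. Low barcodes were deeper, so a fixed count of 3 UMIs was reached more easily there.

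**Figure D5:**
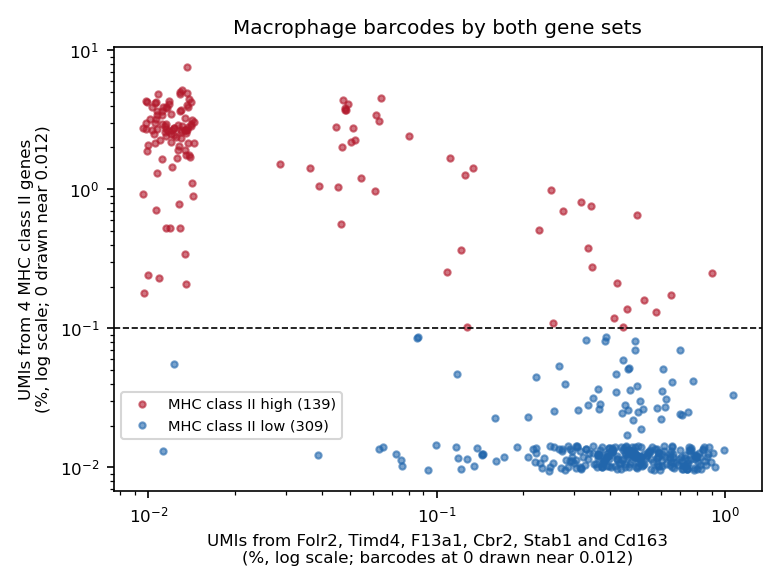
Each point is a macrophage barcode, placed by its share of UMIs from Folr2, Timd4, F13a1, Cbr2, Stab1 and Cd163 (horizontal) and from the 4 MHC class II genes (vertical), both on logarithmic axes with barcodes at 0 drawn near 0.012. The 139 high barcodes (red) lie above the dashed cut of 0.1% and mostly at the left, and the 309 low barcodes (blue) lie below it and mostly at the right.

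Some genes of the low class were found in few barcodes. Vsig4, a complement receptor of resident macrophages, had 0 UMIs in high and 167 in low barcodes, at least 13.9-fold lower against a floor of 3 counts over the class. Only 37 low barcodes (12%) held it, 23 of them with 3 or more UMIs and 1 with 20. Lyve1, a hyaluronan receptor, had 0 and 53 UMIs, at least 4.41-fold lower, in 19 low barcodes, and 20 of the UMIs were in 1 barcode. Cd209f was seen in 61 low barcodes (19.7%), 35 of them with 3 or more UMIs, and in 4 high barcodes. Reads of Cd209f may be shared with Cd209g and other members of the Cd209 cluster. Timd4 was thinly spread by contrast, in 44 low barcodes of which 4 had 3 or more UMIs. S100a4 was seen in 182 low barcodes (58.9%) and 22 high barcodes (15.8%).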

How the data were processed

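The series held 4 libraries of testis cells, made with the Chromium Next GEM Single Cell 3' kit per the labels' protocols. For 1 library, the day 35 Znhit1 knockout, the deposited file gave UMI counts per gene and barcode for 32285 genes, not normalized. Per the file headers the authors made it with Cell Ranger 7.1.0, and per the submitters' processing notes with STAR and the mm10 build. The sources used here do not say which rule separated cells from empty droplets. Of the other 3 libraries only barcode and gene lists were used, and their counts were not analysed here.

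Counts were summed per class as deposited, and CPM is the sum per 1000000 UMIs of the class. Poisson intervals, conditional binomial intervals of ratios and Clopper-Pearson intervals of shares are exact, at 95%, and cover counting error only. Genes needed 20 UMIs over both classes. A class at 0 was set to a floor of 3 counts over the class, and such a gene was never counted as higher in the class where it had no UMI. With 1 library per group no test was run. Ratios, intervals and list medians were also tested on simulated Poisson class sums, which leave out the uneven spread of UMIs between barcodes. The 32 gene lists held 538 genes, of which 535 were in the file.

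The members, the lists and the rule for named genes were chosen with earlier results of these data known. The rule took Znhit1, the genes that select and divide the macrophages, and in each list and comparison the 2 largest ratios upward, the largest downward (at least 1.5-fold) and the most abundant member. Outside the lists it took the 10 largest ratios in macrophages (at least 200 UMIs there) and the 8 largest each way between the MHC class II classes (at least 50 UMIs). Not all genes it gave are printed, and genes named beyond it were chosen after their values were seen. Doublets were called with Scrublet in scanpy 1.11.5 and left in: 265 of 8121 barcodes (3.26%), 16 of them macrophages. Coordinates are from GENCODE vM21 on GRCm38 and upstream sequences from RefSeq on GRCm38.p6. Python 3.11.15, numpy 2.4.6, scipy 1.17.1, pandas 2.3.3 and matplotlib 3.10.9 were used. Alternatives changed the depth, marker, germ cell and MHC class II cuts, the count minimum, the compared barcodes, the weighting of barcodes, doublets and barcodes with markers of other cell types.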

Additional observations from a re-analysis of the deposited data

How the results depend on the processing

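Of 100 recomputed shares, numbers and gene counts, 88 stayed close to their value as reported and 12 moved. Of recomputed gene ratios 2462 stayed close, 502 moved and 1 reversed, and of list medians 960 stayed close and 87 moved. Thinning moved 124 shares of barcodes with a UMI and left 26. The number of macrophages was 271 (3.34% of barcodes) without any Ddx4 or Dazl UMI, and their share was 4.59% with up to 20% mitochondrial UMIs and 4.09% from 500 UMIs and 200 genes. The share that was MHC class II high was 18.6% from 2000 UMIs and 23.4% at a cut of 1%. Against other barcodes without germ cell genes, 3977 genes were at least 2-fold lower in macrophages, against 6551 as reported. Between high and low barcodes, as reported, 440 genes were higher and 1095 lower. With 1 UMI as the minimum 1268 were higher, with 100 UMIs 67 were higher and 326 lower, and within 1500 to 2500 UMIs 265 were higher and 237 lower. Abca1 turned to a log2 ratio of -0.10 against barcodes without germ cell genes (1.37 as reported). The cuts at 1% and at 1500 to 2500 UMIs, leaving out a barcode rich in haemoglobin and leaving ribosomal genes out of the totals were chosen after seeing the data. No paired analysis was possible because the counts of only 1 library were analysed here, so no replicate could be left out either. Depth limits the high class most, since 3 counts there are 10.4 CPM.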

Other observations

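The high class was itself uneven in chemokine RNA. Cxcl2 had at least 2 UMIs in 39 of the 139 MHC class II high barcodes and none in 84, and both sets had a median depth of 1973 UMIs. The sets were chosen after the values had been seen. In the 39, Ccl4 stood at 3388 CPM, against 1011 CPM in the 84, a ratio of 3.35 with an interval of 2.76 to 4.07. Il1b was 2.82-fold higher (2.0 to 3.99), Ccl12 3.84-fold (2.67 to 5.57) and Cd14 2.34-fold (1.86 to 2.95). F13a1 had 0 UMIs in the 39 and 125 in the 84, and Apoe was 5.06-fold lower (4.30 to 6.0). C1qa, at 3996 against 3993 CPM, had a ratio of 1.0, and Csf1r a ratio of 1.10 with an interval of 0.742 to 1.62. The bands at 0.1 to 0.2%, 0.2 to 0.5% and 0.5 to 1% MHC class II held 53, 40 and 27 F13a1 UMIs. They held 573, 392 and 533 Apoe UMIs, and 0, 5 and 23 Cxcl2 UMIs. The part of these mixed barcodes in the F13a1 and Apoe differences was not tested. In the low class, 27 barcodes with at least 2 Vsig4 UMIs were set beside 272 with none. Cd209f was 3.59-fold higher in the 27 (2.68 to 4.75) and Lyve1 2.77-fold (1.33 to 5.38), while Cd163 had a ratio of 0.729 with an interval of 0.260 to 1.66.

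Haemoglobin RNA sat almost wholly in 1 macrophage barcode. Of 1262 haemoglobin UMIs in the 448 macrophages, 1238 were in a low barcode of 4443 UMIs, which made up 27.9% of it, and the next barcode had 2. That barcode also had 1.67% of its UMIs in the 6 macrophage markers and 3 Folr2 UMIs. It was among the 27 barcodes with Vsig4. Near-identical haemoglobin genes share reads, so only their sum is given. Proliferation RNA was scarce. Only 5 macrophages had at least 5 UMIs of 10 cell cycle genes, and the highest had 16. All 5 were in the low class, whose barcodes were more numerous and deeper, so a fixed count was reached more easily there. Of 12 cell cycle genes tested between the classes, 2 were at least 2-fold higher in the high class and 1 lower.

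Steroid response genes were mixed, with 4 of 13 at least 2-fold higher and 4 lower in macrophages than in other barcodes (median log2 ratio -0.52). Against barcodes without germ cell genes 3 of 13 were higher and 7 lower (median -1.21). Nr3c1, the glucocorticoid receptor, stood at 132 CPM in macrophages and 50.6 CPM in other barcodes, 2.60-fold higher with an interval of 2.23 to 3.01. Of 14 genes of the SRCAP complex and H2A.Z, to which Znhit1 belongs, 0 were at least 2-fold higher and 7 lower in macrophages than in other barcodes, while against those without germ cell genes 0 were higher and 0 lower. H2afz, an H2A.Z gene, stood at 797 CPM in macrophages and 1171 CPM in other barcodes, and Srcap, the ATPase, at 39.3 against 67.3 CPM.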
